A study of Mus musculus with 4 samples.

Results

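CC chemokines are small secreted proteins named for a pair of adjacent cysteines, and they draw leukocytes to a tissue through G protein-coupled receptors of the CCR family. Fibroblasts are a known source of several of them, which they release in response to inflammatory cytokines, viral nucleic acids and DNA damage, largely through transcription factors of the NF-kB and interferon regulatory factor families. They are also known members of the secretory program of senescent fibroblasts. Here, 9 genes of this family were followed in mouse embryonic fibroblasts (MEFs), and they were the genes whose name in the array files was Ccl2, Ccl3, Ccl4, Ccl5, Ccl7, Ccl8, Ccl9, Ccl11 or Ccl20. Each had 1 probe, among 31709 genes on the array. The samples were p53+/+ (WT) MEFs and p53-/- MEFs, which lack the tumor suppressor p53, each without and with doxorubicin, a drug that damages DNA by trapping topoisomerase II. RNA of each of these 4 conditions was measured on 1 one-color Agilent array, so that no difference below has a replicate check and no p-value was calculated. The dose and time of doxorubicin for the arrays and the number of embryos behind the MEFs are not given in the sources used here.

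The labels were checked on Trp53, the gene for p53. Its probe gave signals of 1228 and 3442 in WT MEFs without and with doxorubicin, and of 442 and 543 in p53-/- MEFs. The remaining signal in p53-/- MEFs was well above background, and whether the probe lies outside the deleted part of the gene was not analysed. Mdm2, the p53 target that encodes the ubiquitin ligase of p53, rose 3.99-fold with doxorubicin in WT MEFs and had a ratio of 1.38-fold in p53-/- MEFs. Cdkn1a, the p53 target that encodes the cell cycle inhibitor p21, was 26.6-fold lower in untreated p53-/- than in untreated WT MEFs, but rose with doxorubicin in both, 4.22-fold in WT and 4.70-fold in p53-/- MEFs. All 10 fibroblast markers examined, among them Col1a1, Col1a2 and Vim, were well above background on the 4 arrays, with Col1a2 the brightest. With doxorubicin, 4 of these 10 fell at least 2-fold in WT MEFs and 2 in p53-/- MEFs, beside 10.4% and 6.89% of all measured genes, and 0 rose, beside 11.0% and 9.24%. Those that fell in WT MEFs were Lum (28.0-fold lower), Pdgfra (10.3-fold), Pdgfrb (5.43-fold) and Dcn (2.47-fold), and with doxorubicin Pdgfra and Lum were 9.34-fold and 2.18-fold higher in p53-/- than in WT MEFs. These 4 were named after their values were seen. Their part in the results on the chemokines was not tested. In bulk RNA, fewer cells of a type and less RNA per cell cannot be told apart.

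With doxorubicin, the CC chemokines were higher in p53-/- than in WT MEFs. All 7 members that were measured on both doxorubicin arrays were at least 2-fold higher in p53-/- MEFs, from 2.09-fold for Ccl4 to 4.98-fold for Ccl5, where 11.9% of the 17892 genes measured on these arrays were higher and 10.3% lower by as much. Ccl2 was 3.39-fold higher and Ccl7 3.35-fold higher. Ccl11, measured on the p53-/- array of this pair alone, was at least 2.64-fold higher, or at least 1.51-fold with the brightest negative control as the floor, and Ccl20 was measured on neither. With normexp, another background correction, Ccl3, Ccl4 and Ccl8 fell short of 2-fold and 4 of the 7 calls were left. The 2 calls on Ccl11 that follow were also lost with it. The rise of Ccl11 in p53-/- MEFs was lost with array median scaling as well. Without doxorubicin, Ccl5 was the only member at least 2-fold higher in p53-/- MEFs and Ccl11 the only member at least 2-fold lower, among 7 measured, where 2.15% of genes were higher and 2.61% lower by as much. In p53-/- MEFs, doxorubicin raised Ccl2, Ccl7, Ccl9 and Ccl11, 4 of 7 measured, at least 2-fold (9.24% of genes), whereas in WT MEFs Ccl9 was the 1 of 6 measured members that it raised (11.0% of genes). A gene is called measured where Feature Extraction, the program that reads the scanner image, marked its probe as well above background on each array compared, and "raised" or "rose" is used for a log2 ratio of at least 1 (2-fold). Signals are given as a percentage of the 75th percentile of their array, which made the arrays comparable, and a signal without a percent sign is the intensity before this scaling.

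**Figure D1:**
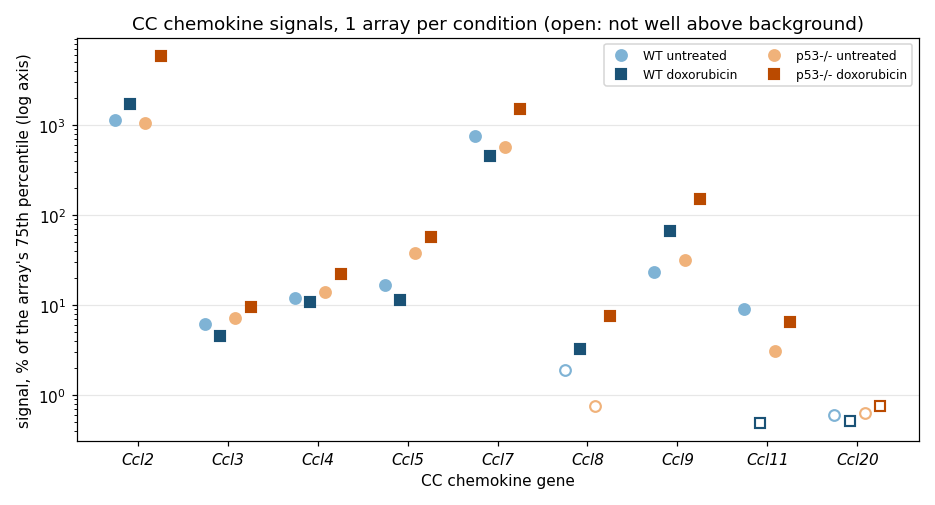
Signal of each CC chemokine probe on the 4 arrays, as a percentage of the array's 75th percentile on a log axis; open symbols were not well above background. For Ccl2, Ccl3, Ccl4, Ccl5, Ccl7, Ccl8 and Ccl9 the highest of the 4 signals was that of doxorubicin-treated p53-/- MEFs, and all 4 signals of Ccl20 are open symbols below 1%.

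Ccl2 encodes the main attractant of inflammatory monocytes and acts through Ccr2. Its probe, on chromosome 11 of mm9 from 81850650 to 81850709, was spotted 10 times on each array. Doxorubicin took the signal from 1136% to 1723% in WT MEFs, and from 1054% to 5845% in p53-/- MEFs. The signals before scaling ranged over the 10 spots from 22109 to 24896, from 29740 to 32831, from 18828 to 20912 and from 134435 to 150511 in the same order. Before scaling, the 4 arrays did not overlap in any spot, and doxorubicin-treated p53-/- MEFs stood far above the rest. After scaling, the spots of the untreated WT and untreated p53-/- arrays overlapped. The rise with doxorubicin was 5.55-fold (log2 ratio 2.47) in p53-/- MEFs, a value that 1.15% of the measured genes exceeded. In WT MEFs the ratio was 1.52-fold, which 20.1% of the measured genes exceeded. The log2 SD over the spots of this probe was 0.05 on each array, which describes spots on a slide and not separate cultures.

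Ccl7 encodes a second monocyte attractant that also binds Ccr2, and its probe lies next to that of Ccl2, from 81860656 to 81860715. Its signal was 755% without and 455% with doxorubicin in WT MEFs, and 570% without and 1524% with doxorubicin in p53-/- MEFs. Doxorubicin thus went with a lower signal in WT MEFs, at a log2 ratio of -0.73, and with a higher one in p53-/- MEFs, at 1.42. Subtracting the p53-/- from the WT log2 ratio gave -2.15, lower than that of all but 2.14% of 16513 genes. With arrays scaled to their median, Ccl7 reached a 2-fold fall in WT MEFs (log2 ratio -1.01).

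Ccl9, which in mice encodes a ligand of Ccr1, was the member that rose in both genotypes. The probe lies on chromosome 11 from 83388223 to 83388282. In WT MEFs the signal went from 23.1% to 66.8%, a 2.89-fold rise. In p53-/- MEFs it went from 31.6% to 152%, a 4.83-fold rise. Each treated array was above both untreated arrays. The log2 ratios were 1.53 and 2.27, and the difference of -0.74 was under 2-fold.

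The RefSeq promoter table (GRCm38.p6, 250 bases before to 50 after each start) held 4 members, namely Ccl3, Ccl8, Ccl9 and Ccl20. They were searched on both strands for the kappaB consensus of NF-kB and for a loose AP-1 pattern, TGANTCA. That pattern takes any base in the middle, where the AP-1 consensus has C or G. The search also covered the interferon-stimulated response element (GAAA, 2 bases of any kind, GAAA) and the consensus of a p53 half-site. The windows with a kappaB or AP-1 match are shown 5′ to 3′ on the strand of the gene, with the matching letters in capitals. They were picked by these matches and not by expression.
Ccl9: cTGAATCAatttgaactttGGAAAGCCCCa
Ccl20: aatcaatgggGGAAAACCCCgggtgagaac
The Ccl9 window, chr11:83578661-83578690 on the minus strand, holds a match to the loose AP-1 pattern (first capitals) and a kappaB match (second capitals). They do not overlap and lie between 54 and 25 bases before the start. The middle base of the first match is A, so it is not a match to the AP-1 consensus. The Ccl20 window, chr1:83116676-83116705 on the plus strand, holds a kappaB match. A kappaB match was found in 8.46% of 32851 promoters, and a match to the loose AP-1 pattern in 7.81%. The response element and the p53 half-site matched in 0 of the 4 windows and in 3.44% and 8.36% of all promoters. These positions are in GRCm38 and cannot be set against the mm9 probe positions. A match describes letters in this window and not a bound site.

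Ccl5, also known as RANTES, attracts T cells and monocytes. Its probe lies on chromosome 11 from 83339296 to 83339355. The signal was 16.8% without and 11.4% with doxorubicin in WT MEFs, and 38.2% without and 56.9% with doxorubicin in p53-/- MEFs. Both p53-/- arrays were above both WT arrays. Without doxorubicin the ratio of p53-/- over WT MEFs was already 2.27-fold, which 1.05% of the 17286 measured genes exceeded, and with doxorubicin it was 4.98-fold. The ratio with doxorubicin was 1.49-fold in p53-/- MEFs (log2 ratio 0.58) and -0.56 on the log2 scale in WT MEFs, each under 2-fold.

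Ccl3 and Ccl4 encode the macrophage inflammatory proteins alpha and beta, which attract macrophages and other leukocytes. Their probes, from 83461358 to 83461417 and from 83478052 to 83478111 on chromosome 11, were dim. Ccl3 had 6.19% and 4.50% in WT MEFs without and with doxorubicin and 7.16% and 9.57% in p53-/- MEFs. Ccl4 had 12.1% and 10.7% in WT MEFs and 14.0% and 22.3% in p53-/- MEFs. The Ccl3 signal of 135 before scaling in untreated p53-/- MEFs was under the brightest negative control there (250.1). For both genes doxorubicin-treated p53-/- MEFs had the highest and doxorubicin-treated WT MEFs the lowest signal. No ratio with doxorubicin reached 2-fold in either genotype, with log2 ratios of -0.46 and 0.42 for Ccl3 and of -0.18 and 0.68 for Ccl4. Between the doxorubicin arrays, Ccl3 differed 2.13-fold and Ccl4 2.09-fold. These 2 calls were lost with the normexp background correction, which gave log2 ratios of 0.49 and 0.78, and that of Ccl4 also with array median scaling (0.99). For probes spotted 10 times with signals under 300, where Ccl3 and most values of Ccl4 lie, the SD of a ratio of single spots was 0.26 on the log2 scale, against 0.12 for signals of 300 to 1000 and 0.08 for brighter probes.

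Ccl11 and Ccl8 were near background. Ccl11 encodes eotaxin, the eosinophil attractant that binds Ccr3, and its probe lies from 81876072 to 81876131. Doxorubicin took its signal from 8.95% to 0.493% in WT MEFs, the latter not well above background. It thus fell at least 3.67-fold, taking the dimmest signal so called on the treated array as a floor, and at least 2.10-fold with its brightest negative control as the floor. In p53-/- MEFs the signal went the other way, from 3.10% to 6.44%, a 2.08-fold rise. Without doxorubicin it was 2.89-fold lower in p53-/- than in WT MEFs, although the signal of 58.2 before scaling in p53-/- MEFs lay below the brightest negative control of that array. With normexp the rise in p53-/- MEFs had a log2 ratio of 0.56 and the untreated difference -0.92, both under 2-fold. Array median scaling also left the rise in p53-/- MEFs under 2-fold.

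Ccl8 encodes a further monocyte chemoattractant of the same gene group as Ccl2, with a probe from 81930108 to 81930167. It was not well above background in either untreated genotype, at signals of 1.91% in WT and 0.761% in p53-/- MEFs. With doxorubicin it was called at 3.27% in WT and 7.47% in p53-/- MEFs. It thus rose at least 2.43-fold in the latter, although its signal there, 181 before scaling, was under the brightest negative control in untreated p53-/- MEFs (250.1). The treated genotypes differed 2.28-fold, but the WT signal of 59.5 before scaling was below the brightest negative control of that array (77.5), and normexp gave a log2 ratio of 0.51. Ccl20, which encodes the ligand of Ccr6 and was the member outside chromosome 11 (probe on chromosome 1, from 83115682 to 83115741), was not well above background on any of the 4 arrays, at signals from 9.41 to 18.5 before scaling.

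Counted over the members, 1 of 6 measured CC chemokines rose and 0 fell with doxorubicin in WT MEFs, where 11.0% of 17513 measured genes rose and 10.4% fell. Not counted is Ccl11, which fell at least 3.67-fold there, or at least 2.10-fold with the brightest negative control as the floor. In p53-/- MEFs, 4 of 7 rose (3 with normexp or with array median scaling) and 0 fell, where 9.24% of 16953 measured genes rose and 6.89% fell. Ccl8, not counted, rose at least 2.43-fold there, but this bound was lost with the brightest negative control as the floor. The 7 ratios in p53-/- MEFs were all above 0, and their log2 median was 1.06 beside 0.00 over all genes. In WT MEFs, 4 of 6 ratios were below 0, and the median was -0.32 beside 0.01. The response was larger in p53-/- than in WT MEFs for 6 of the 6 members measured on all 4 arrays, as it was for 49.1% of all such genes. For 4 of them, Ccl3, Ccl4, Ccl5 and Ccl7, the ratio was below 0 in WT and above 0 in p53-/- MEFs, which held for 16.7% of all genes. The difference of ratios passed 2-fold for Ccl2, Ccl5 and Ccl7, where 9.86% of genes had one of -1 or less and 8.37% one of 1 or more. That of Ccl5, -1.13, was -0.87 with normexp. The ratio over WT MEFs and the rise in p53-/- MEFs share the array of doxorubicin-treated p53-/- MEFs, so that they are not separate observations. On that array the background was also brightest, with a median negative control signal of 22.2 against 11.2 to 14.8 on the others. Its part in the results on the dim members was not tested.

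**Figure D2:**
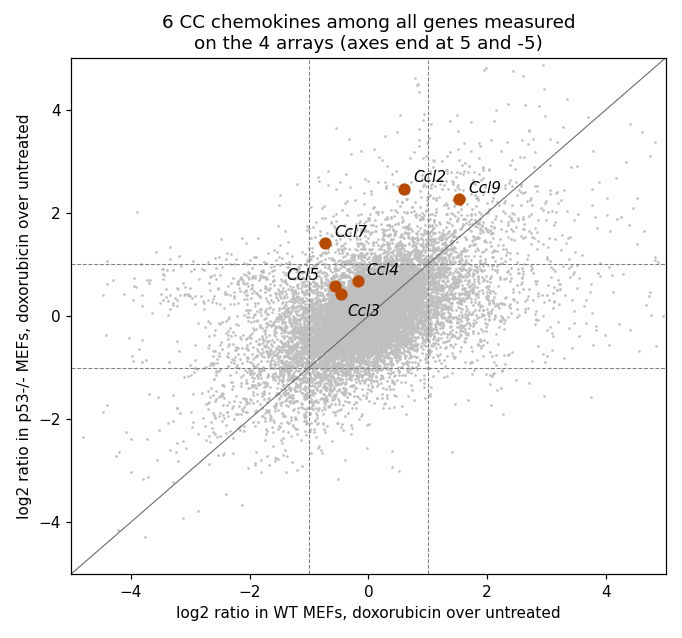
Log2 ratio of doxorubicin over untreated in WT MEFs (horizontal) and p53-/- MEFs (vertical) for the 16513 genes measured on all 4 arrays (gray) and the 6 CC chemokines among them; dashed lines mark 2-fold and the solid line equal ratios. All 6 members lie above the line of equal ratios, and Ccl9 lies beyond 2-fold on both axes.

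**Figure D3:**
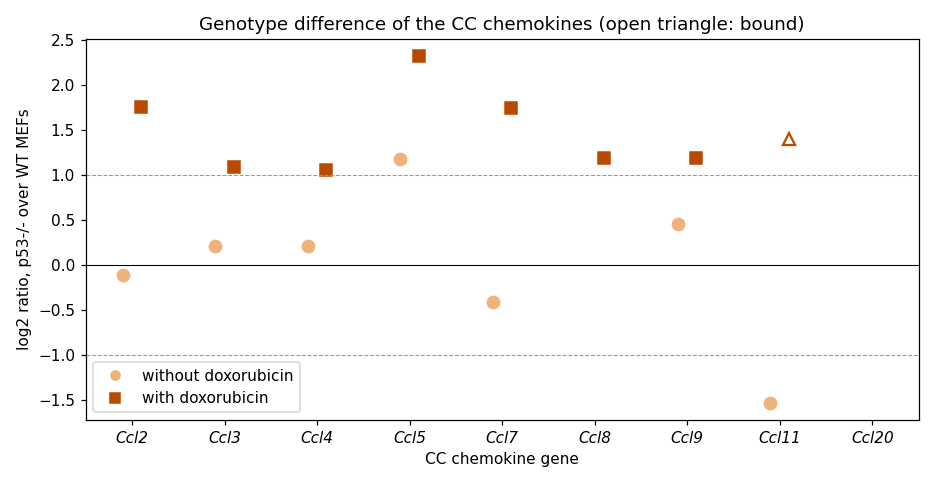
Each CC chemokine's log2 ratio between the genotypes, p53-/- over WT, without (circles) and with (squares) doxorubicin; the open triangle is a lower bound and dashed lines mark 2-fold. The 7 squares lie between 1.06 and 2.32, while the circles lie on both sides of 0.

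On chromosome 11, the CC chemokine probes fell into 2 groups separated by the 1349 kb between Ccl1, which is not among the 9 members, and Ccl5. Of the 8 members there, Ccl2, Ccl7, Ccl11 and Ccl8 were in one group and Ccl5, Ccl9, Ccl3 and Ccl4 in the other. The neighbors differed among themselves. In WT MEFs, the log2 ratio was 0.60 for Ccl2 and -0.73 for Ccl7, the adjacent gene. Ccl9 rose in both genotypes, and its measured neighbors Ccl5, Ccl3 and Ccl4 did not rise in either. Ccl12, a monocyte chemoattractant between Ccl11 and Ccl8 that is not among the 9 members, had signals of 6.58% and 10.8% in WT MEFs and of 6.54% and 26.5% in p53-/- MEFs, a 4.05-fold rise in p53-/- MEFs and a ratio of 1.64-fold in WT MEFs. In untreated p53-/- MEFs its signal of 123 before scaling did not reach the brightest negative control. Ccl6, next to Ccl9, was well above background on the doxorubicin arrays only, and rose at least 3.12-fold in WT and at least 3.05-fold in p53-/- MEFs, but with the brightest negative control as the floor the WT bound was 1.75-fold and the p53-/- bound was lost.

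**Figure D4:**
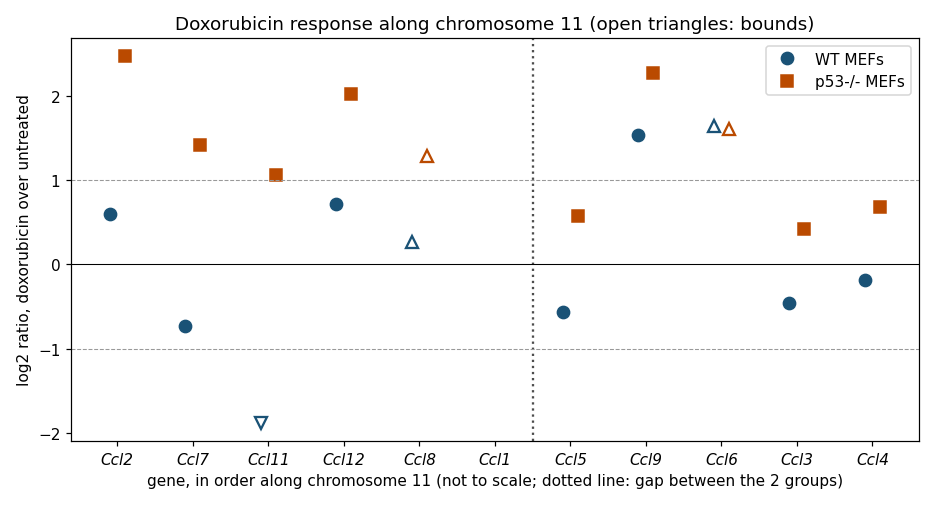
Log2 ratio of doxorubicin over untreated in WT (circles) and p53-/- (squares) MEFs for the CC chemokine genes in their order on chromosome 11; open triangles are bounds. The p53-/- values lie above the WT values for each gene measured in both genotypes, and Ccl1 has no symbol because its probe was not well above background on any array.

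Of 14 other CC chemokines, 13 were on the array and 6 were measured on all 4 arrays. With doxorubicin, 0 of the 6 rose and 1 fell in WT MEFs, and 1 rose and 0 fell in p53-/- MEFs, beside 11.0% and 10.4% of all genes in WT and 9.24% and 6.89% in p53-/- MEFs. The fall in WT MEFs was that of Ccl17, a ligand of Ccr4 on T cells, which had 58.6% without and 18.4% with doxorubicin in WT MEFs (3.18-fold lower) and 79.7% and 142% in p53-/- MEFs. Between the doxorubicin arrays, 2 of 8 measured genes of this list were at least 2-fold higher in p53-/- MEFs and 0 lower, beside 11.9% and 10.3% of all genes, around a log2 median of 0.44. They were Ccl17 (7.70-fold) and Ccl12 (2.45-fold), while Ccl25 and Ccl21b had log2 ratios of -0.26 and -0.07. The remaining 4 of the 6 measured on all arrays, Ccl19, Ccl21b, Ccl25 and Ccl27a, had log2 ratios from -0.10 to 0.59 in WT and from -0.09 to 0.73 in p53-/- MEFs. Of the 4 probes of Ccl27a, the lowest ratio in p53-/- MEFs was 0.17 and the one in use gave 0.73. Ccl21a, which shares nearly all of its sequence with Ccl21b so that their signals are uncertain, was called on the doxorubicin arrays only, at least 2.64-fold up in WT and 2.90-fold in p53-/- MEFs. With the brightest negative control as the floor, its WT bound was 1.49-fold and its p53-/- bound was lost. Ccl1, Ccl22, Ccl24, Ccl26 and Ccl28 were well above background on none of the 4 arrays. The difference of log2 ratios, WT minus p53-/-, was -1.30 for Ccl12 and -2.50 for Ccl17, and the other 4 had values from -0.83 to 0.48.

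Of 14 CC chemokine receptors, 2 were well above background on all 4 arrays, as were 16513 of all 31709 genes, and both are atypical receptors that bind chemokines without G protein signaling. Ackr1 had a log2 ratio of -0.50 with doxorubicin in WT MEFs and rose 2.33-fold in p53-/- MEFs, although the signal it rose from, 182 before scaling, did not reach the brightest negative control. Ackr4 fell in both genotypes, by 3.57-fold in WT and 2.15-fold in p53-/- MEFs, and its second probe gave log2 ratios of -1.81 and -1.27 beside -1.83 and -1.10. Ccr1, Ccr2, Ccr3, Ccr4, Ccr8 and Ackr2 were not well above background on any array. Ccrl2, which binds chemerin, was called only in doxorubicin-treated p53-/- MEFs, at least 4.52-fold above doxorubicin-treated WT MEFs, or 2.59-fold with the brightest negative control as the floor. Ccr6, Ccr7 and Ccr9 were called on the doxorubicin arrays only, with log2 ratios of p53-/- over WT MEFs of 0.80, 0.60 and 0.36. Ccr10 was called only in untreated p53-/- MEFs, at a signal of 70.4, which is below the brightest negative control of that array.

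A list of 28 genes that act upstream of chemokine transcription held subunits and inhibitors of NF-kB, interferon regulatory factors, sensors of nucleic acids and cytokines. In p53-/- MEFs, 13 of 19 measured genes rose and 0 fell with doxorubicin, around a log2 median of 1.69, beside 9.24% and 6.89% of all measured genes. In WT MEFs, 3 of 20 rose and 2 fell, beside 11.0% and 10.4%, and the median was 0.21. Among the measured genes, the largest ratio in p53-/- MEFs was that of Il6, an inflammatory cytokine, with signals of 515 and 649 in WT MEFs and of 633 and 12146 in p53-/- MEFs and log2 ratios of 0.52 and 3.90. Tnfaip3, the deubiquitinase that dampens NF-kB signaling, rose in both genotypes, and its log2 ratio was 2.70 in WT MEFs beside 3.58 in p53-/- MEFs. The RNA sensor Ifih1 did likewise, at 1.86 and 3.36. The NF-kB subunit Nfkb2 (0.49 in WT and 2.01 in p53-/- MEFs), the inhibitor Nfkbie (0.24 and 3.02), the RNA sensor Ddx58 (0.40 and 2.76) and the interferon signaling factor Stat2 (0.59 and 2.45) rose in p53-/- MEFs. Another Ddx58 probe gave 1.05 and 2.02. Cgas, the cytosolic DNA sensor, fell in WT MEFs (-2.08) and rose in p53-/- MEFs (1.02), where another probe gave 0.91, under 2-fold. The cytokines Tnf and Il1b were not well above background on any array.

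**Figure D5:**
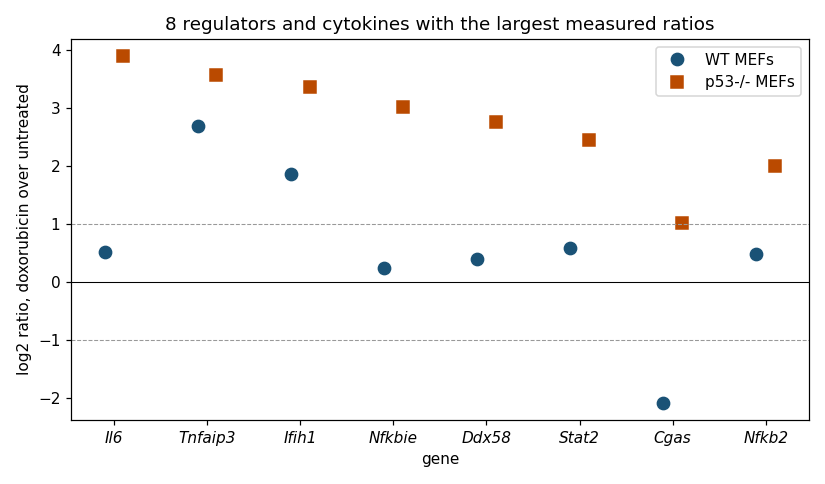
Log2 ratio of doxorubicin over untreated in WT (circles) and p53-/- (squares) MEFs for the 8 genes with the largest absolute ratio in either genotype among the measured genes of 28 regulators and cytokines, bounds left out; dashed lines mark 2-fold. All 8 squares are at 1.02 or above, and each is above its circle.

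For each member measured on all 4 arrays, the genes with the most similar pattern were found by the root mean square distance between log2 values centered over the 4 arrays. Nearest to Ccl2 were Cd34, a transcript listed as ENSMUST00000074862 and Stat2, at distances of 0.09, 0.09 and 0.11. Nearest to Ccl7 were Hpse, Ackr1 and H2-T9 at 0.11, 0.11 and 0.12, and nearest to Ccl9 were Diras2 and Fbxo2 at 0.07 and 0.08. Ccl5 was nearest to a transcript listed as ENSMUST00000040338, to Smad9 and to 9430015G10Rik at 0.04, 0.07 and 0.08. Ccl3 and Ccl4 had no distinctive pattern, since 1416 and 1274 genes lay within 0.25 of them, against 38 for Ccl2, 88 for Ccl7, 44 for Ccl9 and 73 for Ccl5. Naa50, Ttc9c and an unnamed probe were nearest to Ccl3, and Wdr55, Plekha2 and Slc25a51 to Ccl4. Among the members themselves, Ccl3 and Ccl4 were closest (0.13), then Ccl4 and Ccl7 (0.33) and Ccl2 and Ccl9 (0.34). With 4 arrays and 16512 genes compared, close patterns are common.

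Markers of leukocytes, the cells best known for Ccl3, Ccl4 and Ccl9, were examined beside these results. Of 14 markers, 12 and 13 were well above background in WT MEFs without and with doxorubicin, and 11 and 11 in p53-/- MEFs. Of all probes, 57.5%, 62.9%, 56.9% and 58.4% were well above background on these arrays in the same order. The summed signal of the markers was 1756%, 2470%, 1921% and 1643% in this order, of which Itgam, the brightest, made up the larger part on each array, and 490%, 727%, 413% and 473% without it. Another Itgam probe had signals from 77.2 to 110.4. Cd14, named after its values were seen, went from 24.8% to 331% in WT MEFs and from 29.9% to 46.1% in p53-/- MEFs. Its rise in WT MEFs exceeded that of the sum without Itgam. The markers other than Itgam and Cd14 thus had no rise in their sum there. Csf1r, the brightest of them, went from 233% to 151% in WT MEFs. Of the 12 log2 ratios measured in WT MEFs, 8 were above 0, around a median of 0.21. With doxorubicin, 0 of 10 measured markers rose in p53-/- MEFs and 2 of 12 in WT MEFs, near the 9.24% and 11.0% of all genes. In p53-/- MEFs, 8 of the 10 log2 ratios were above 0, around a median of 0.38, among them those of Aif1 (0.68), Laptm5 (0.63) and Adgre1 (0.58). The pan-leukocyte marker Ptprc had a log2 ratio of 0.18 in p53-/- MEFs, where the macrophage marker Cd68 was called on neither array (41.9 with doxorubicin) and Lyz2, another, went from 103 to 36.9, the latter not well above background. In WT MEFs, Cd68 went from 53.2, not well above background, to 211, and Lyz2 from 253 to 149.9. Ly6g, a neutrophil marker, went from 47.7, not well above background, to 240.2 in p53-/- MEFs and from 181 to 458 in WT MEFs. The part of these markers in the results on the chemokines was not tested. Of 6 endothelial markers, 2 or 3 were well above background on each array, with Kdr the brightest and Cdh5 and Tie1 on none. Of 6 epithelial markers, 2 to 4 were, with Epcam and Cldn4 on none. Krt5 was not well above background in untreated WT MEFs, reached 951 with doxorubicin, and was well above background on neither p53-/- array, and Krt14 went from 322 to 822 in WT and from 179 to 478 in p53-/- MEFs. The summed epithelial signal was 26.8% and 110.3% in WT and 22.7% and 43.0% in p53-/- MEFs. Their part in the results was not tested.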

How the data were processed

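For each sample, the authors made Cy3-labeled cRNA from 200 ng of RNA, and the 4 arrays, on 1 slide, were read with Agilent Feature Extraction 10.7.3.1. The deposited intensity is background-subtracted and detrended within the array, with surrogate values for dim spots, and is not normalized between arrays. A deposited table of intensities equaled it within 0.1% at all 44397 spots. Probe positions are in mm9. Slide position and condition cannot be told apart.

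Control spots and 145 to 168 outlier spots per array were omitted. No array had saturated spots. The log2 intensities of a probe's spots were averaged and the 75th percentile of the array (signals of 2074, 1819, 1881 and 2421 for untreated and treated WT and untreated and treated p53-/- MEFs) was subtracted. A gene was its brightest probe over the 4 arrays. RefSeq (GRCm38.p6) named 30179 of 39429 probes. Where a probe was not well above background on 1 array of a pair, its fold is a bound, taken from the higher of the probe's signal and the lowest signal so called there (56.7, 44.3, 57.9 and 87.1). The brightest of 153 negative controls had 108, 77.5, 250.1 and 119.7, so that weak calls are near background.

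The members were chosen by name, and members and lists were chosen with earlier results of these data known. Genes were named by a rule: the members, Trp53, Cdkn1a and Mdm2, measured genes of the other CC chemokines and receptors, the 8 upstream genes with the largest measured ratio, the 3 genes nearest in pattern and the brightest and defining markers. A few genes under this rule are not reported here by name and are kept in the counts. Alternatives were array median scaling, quantile normalization, normexp (limma 3.58.1, offset 50), 2 other filters on dim probes, the mean of probes, the deposited table and 1.5-fold and 3-fold limits. A limit at the brightest negative control was added after seeing the data. The steps were tested on simulated arrays. Python 3.11.15 with numpy 2.4.6, pandas 2.3.3 and matplotlib 3.10.9, and R 4.3.3 were used. The number of arrays limits the precision.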

Additional observations from a re-analysis of the deposited data

Results flagged for a closer look

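Ccl3, Ccl4, Ccl5 and Ccl7 were set apart because their signals moved in opposite directions with doxorubicin in the 2 genotypes. Each log2 ratio had to pass 0.14, the SD of a ratio of single spots over all signals. The WT log2 ratio of Ccl4, -0.18, was within the SD of 0.26 for signals under 300, so its direction there is uncertain. The difference of log2 ratios, WT minus p53-/-, was -0.88 for Ccl3, -0.86 for Ccl4, -1.13 for Ccl5 and -2.15 for Ccl7. With 1 array per condition, these differences were not tested. Their signs were kept under array median scaling, quantile normalization and normexp, with the smallest difference at -0.40 for Ccl3 under normexp.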

How the results depend on the processing

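All 33 log2 ratios of the members kept their sign under array median scaling, quantile normalization and normexp, and 26 kept their side of 2-fold. The other 7 were the ratios between the treated genotypes of Ccl3, Ccl4 and Ccl8, the difference of ratios of Ccl5, the WT ratio of Ccl7, and the p53-/- and untreated ratios of Ccl11. The range over these settings was 2.17 to 2.58 for Ccl2 and 1.12 to 1.43 for Ccl7 in p53-/- MEFs with doxorubicin. With array median scaling, the median over all genes of the doxorubicin log2 ratios shifted to -0.27 in WT MEFs and to -0.30 in p53-/- MEFs. It changed the genes that rose and fell to 1319 and 2792 in WT MEFs (1930 and 1828 in the main setting) and to 955 and 2098 in p53-/- MEFs (1567 and 1168), and 1 member then fell in WT MEFs. The rise of Ccl11 in p53-/- MEFs was then under 2-fold. Under normexp, Ccl2, Ccl5, Ccl7 and Ccl9, 4 members, stayed past 2-fold between the treated genotypes (7 in the main setting) and 0 were lower without doxorubicin. Without a filter on dim probes, 1 member fell in WT MEFs, 2 were lower in untreated p53-/- MEFs and 5 had a difference of ratios past 2-fold (3 in the main setting), the additional ones resting on values below background. Probes well above background on all 4 arrays, or above the brightest negative control, gave 0 members lower in untreated p53-/- MEFs, since Ccl11 is then not measured. The rise of Ccl11 in p53-/- MEFs is then not called either. At 1.5-fold, 2 members rose and 1 fell in WT MEFs and 6 had a difference of ratios past the limit. At 3-fold, 0 rose in WT MEFs, 2 rose in p53-/- MEFs, 3 were higher in p53-/- MEFs with doxorubicin, and 0 were higher and 0 lower without it. Over all genes and without a filter, 4900 rose and 2868 fell in WT MEFs, 4719 rose and 2353 fell in p53-/- MEFs, 1442 were higher and 1673 lower in untreated p53-/- MEFs (372 and 452 in the main setting), 3844 higher and 3617 lower in treated p53-/- MEFs (2128 and 1844), and 3622 and 4054 had a difference of ratios past 2-fold upward and downward (1382 and 1629). Normexp gave 219 genes higher in untreated p53-/- MEFs. Above the brightest negative control, a limit chosen after seeing the data, 875 rose in p53-/- MEFs and 288 were lower in untreated p53-/- MEFs. In the same order of comparisons, the counts were 3609 and 3511, 3284 and 2687, 1510 and 1501, 4078 and 3521, and 3035 and 3280 at 1.5-fold, and 888 and 734, 647 and 381, 44 and 123, 947 and 864, and 523 and 726 at 3-fold. The cause of these changes was not tested unless given. No paired analysis was possible because each condition has 1 array, and leaving out a replicate was not possible for the same reason.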

Other observations

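Some upstream genes that were not measured on both arrays of a pair came above background with doxorubicin, and they were chosen after their values were seen. Irf7, the interferon regulatory factor that amplifies interferon expression, had signals of 15.9 and 319 in WT MEFs and of 24.7 and 2997 in p53-/- MEFs. It thus rose at least 6.42-fold in the former and 40.2-fold in the latter, or at least 3.36-fold and 9.31-fold against the brightest negative control. Il1a, a cytokine that drives chemokine expression in senescent fibroblasts, was called only in doxorubicin-treated p53-/- MEFs, at a signal of 379, at least 6.43-fold above doxorubicin-treated WT MEFs, or 3.68-fold against the brightest negative control. Over untreated p53-/- MEFs, Il1a rose at least 5.09-fold, but the bound was 1.18-fold against the brightest negative control. Ifnb1, the type I interferon of fibroblasts, was likewise called in doxorubicin-treated p53-/- MEFs alone, at 337, at least 5.70-fold above doxorubicin-treated WT MEFs, or 3.26-fold against the brightest negative control. Over untreated p53-/- MEFs, Ifnb1 rose at least 4.51-fold, but the bound was 1.05-fold against the brightest negative control. Cd14, a co-receptor for lipopolysaccharide on the list of leukocyte markers, went the other way, with log2 ratios with doxorubicin of 3.74 in WT and 0.62 in p53-/- MEFs.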
